A study of Mus musculus with 2 samples.

Results

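The circadian clock genes described here are Arntl, Clock, Npas2, Per1, Per2, Per3, Cry1, Cry2 and Dbp. The probe sets of these 9 genes were found by gene symbol among the 22296 symbols of the platform annotation. The genes were chosen by name as the core of the clock, with earlier results of these data known. They were measured in mouse hypothalamic neurons that express agouti-related peptide (AgRP neurons, which drive feeding), collected by FACS, with 1 exon-level array for FoxO1 KO cells and 1 for FoxO1 heterozygous KO cells. Insulin acts on FoxO1, a transcription factor, by holding it in the cytoplasm, and the design asks how these neurons differ when it is lost. Both genotypes carry a FoxO1 deletion and a mixed genetic background, so the reference array is a heterozygote and not a wild type. The mice were matched littermates with free access to food under a 12-h light and 12-h dark cycle. The hour at which the cells were collected, the age and sex of the mice, the number of mice behind an array and what drives the deletion are details not given in the sources used.

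The mammalian clock is a loop of transcription and repression. CLOCK, or its relative NPAS2, pairs with BMAL1, the product of Arntl, and the pair binds E-box sequences to switch on the Per and Cry genes, whose proteins return to the nucleus and repress it. Dbp is switched on through E-boxes too and encodes a factor that binds D-box sequences, while nuclear receptors of the REV-ERB and ROR families set the rhythm of Arntl. Since transcripts of these genes swing over the day, with Arntl high when Per and Dbp transcripts are low, their levels in a tissue depend on the hour of sampling.

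None of the 9 clock genes differed by 2-fold between the arrays. Each difference is the KO value less the heterozygous value in log2 units, where 1 is 2-fold. A gene's value is the median over its probe sets whose mean over both arrays reached 5.86, the median of all probe sets, and the SD beside it is over those probe sets, not between mice. Arntl was the lowest at -0.58 (SD 1.05, n = 17 probe sets), followed by Cry2 at -0.40 (SD 0.84, n = 46) and Per2 at -0.26 (SD 0.93, n = 31). Per3 was the highest at 0.25 (SD 1.40, n = 33), ahead of Cry1 at 0.15 (SD 0.97, n = 14) and Clock at 0.12 (SD 0.75, n = 31). Npas2 at -0.13 (SD 0.71, n = 17), Per1 at -0.04 (SD 0.74, n = 34) and Dbp at -0.03 (SD 0.75, n = 12) lay between these. In every one of the 9 genes the SD was larger than the size of the difference.

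A call needed a difference of 1 or more in either direction, and 75% or more of the probe sets had to share its sign. None of 9 members was called, where 2.25% of the 16639 evaluated genes were, so the lack of a call does not set the clock genes apart. Under a 1.5-fold rule, again none of the 9 passed, against 8.17% of all genes; Arntl missed it narrowly, at 1.49-fold lower with 13 of 17 probe sets lower. Below 0 were 6 of 9 members, close to the 65.2% of all evaluated genes that were. The median over the members was -0.04, and that over all evaluated genes was -0.11, with quartiles of -0.29 and 0.09. Arntl, Cry2, Per3, Cry1 and Clock lay outside these quartiles, and Npas2, Per1, Per2 and Dbp inside them. With 1 array per genotype there is no replicate and no test, and the precision of every value is limited by that number.

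**Figure D1:**
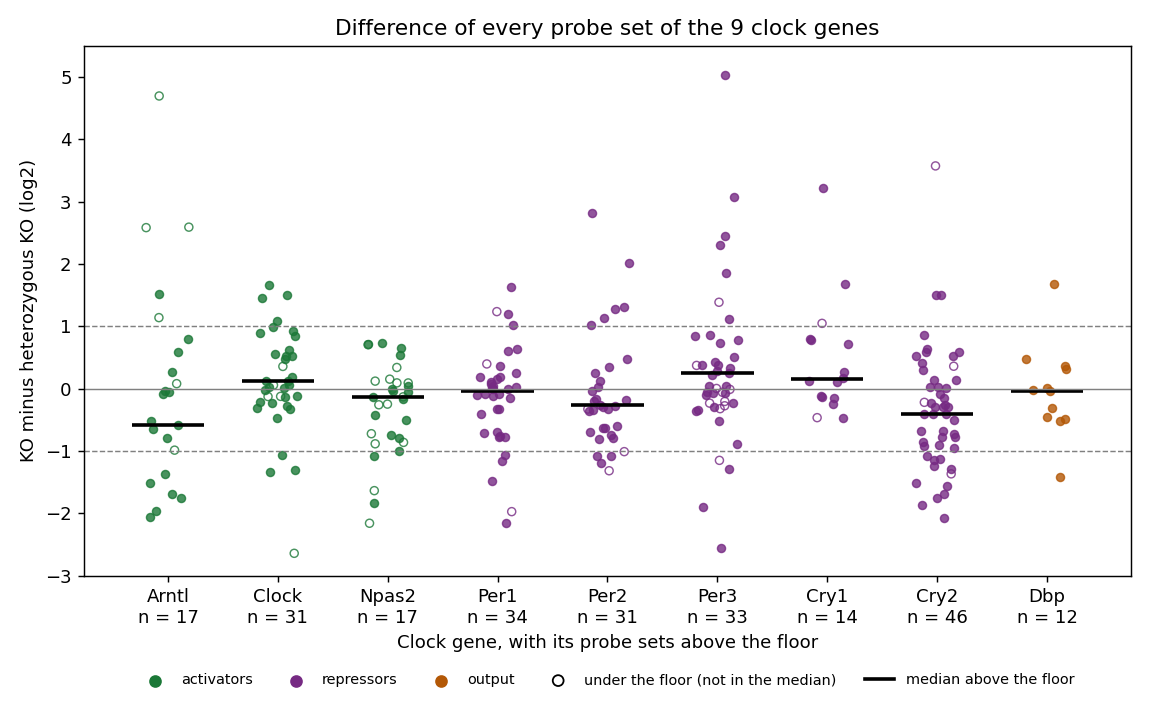
Difference between the KO and the heterozygous KO array (log2) for every probe set of the 9 clock genes; filled points entered the median (black bar), open points lay under the floor, and dashed lines mark 2-fold. All 9 bars lie between -0.58 (Arntl) and 0.25 (Per3), while single probe sets run from -2.64 (Clock) to 5.04 (Per3).

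The platform annotation gave these genes 282 probe sets, from 12 for Dbp to 50 for Cry2, and 235 of them reached the floor. Every member had at least 12 probe sets above it. Of the 235, 25 (10.6%) were higher on the KO array by 2-fold or more and 33 (14.0%) lower by as much. All 215976 single-symbol probe sets above the floor gave 9.24% and 11.0%. At 4-fold, 7 of the 235 member probe sets were higher and 4 lower, where all probe sets gave 2.56% and 2.60%. The 7 were 4 of Per3, 2 of Per2 and 1 of Cry1, and the 4 were 1 each of Arntl, Per1, Per3 and Cry2. Among the 7, Per3 5481601 and 4884803, Per2 5421225 and Cry1 4748458 were under the floor on the heterozygous array. They passed through the KO array alone, whereas the 4 lower ones were above the floor on both arrays.

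The sequence just before the start of transcription was searched for exact letters of known clock elements and of a FoxO element. Elements elsewhere, or with other letters, were not searched for. Given here are 3 windows that hold an E-box or a D-box. Windows were taken from RefSeq (GRCm38.p6) for the 8 members listed there, as the 250 bases before each start, written 5′ to 3′ on the strand of the gene. Capitals mark the E-box CACGTG, the D-box TTATGTAA, the core of the ROR element AGGTCA and the FoxO element GTAAACA, each searched on both strands.
Per1, chr11:69098699-69098948, plus strand: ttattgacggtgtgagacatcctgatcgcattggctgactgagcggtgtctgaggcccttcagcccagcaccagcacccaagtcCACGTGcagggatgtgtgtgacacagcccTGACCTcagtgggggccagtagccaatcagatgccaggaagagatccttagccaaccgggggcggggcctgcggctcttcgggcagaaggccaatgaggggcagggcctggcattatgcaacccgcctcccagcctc
Per3, chr4:151044666-151044915, minus strand: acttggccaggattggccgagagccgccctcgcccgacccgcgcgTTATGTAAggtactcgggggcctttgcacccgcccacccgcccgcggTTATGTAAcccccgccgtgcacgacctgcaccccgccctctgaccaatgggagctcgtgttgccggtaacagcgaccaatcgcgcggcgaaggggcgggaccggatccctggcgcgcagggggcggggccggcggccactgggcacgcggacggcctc
Cry1, chr10:85185055-85185304, minus strand: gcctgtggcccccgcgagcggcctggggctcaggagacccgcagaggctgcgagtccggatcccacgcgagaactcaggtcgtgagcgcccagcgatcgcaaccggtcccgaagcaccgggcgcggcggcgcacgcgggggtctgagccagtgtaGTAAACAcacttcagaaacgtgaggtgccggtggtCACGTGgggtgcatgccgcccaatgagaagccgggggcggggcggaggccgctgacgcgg

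Per1 held 1 E-box in the window given, whose first base lay 166 bases before the start, and 1 ROR element core on the opposite strand. The other Per1 window held none of the 4 motifs. Per3 held no E-box and a pair of D-boxes, which began 205 and 158 bases before the start. Cry1 held 1 E-box at 60 bases and 1 FoxO element at 95 bases. Of the 32851 windows of this length in the table, 6.02% held the E-box, 0.819% the D-box, 14.0% the ROR core and 3.17% the FoxO element. Clock held a ROR core in 1 of its 3 windows, and no exact match to the 4 motifs was in the windows of Arntl, Npas2, Cry2 or Dbp. This does not show that these genes lack such elements. Per2 is not in the table. Differences were -0.04 for Per1 and 0.15 for Cry1, which hold the E-box, and 0.25 for Per3, which holds the D-box. A match of letters is a description and not a site of binding.

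Arntl encodes BMAL1, the partner that both CLOCK and NPAS2 need. Over its 17 probe sets above the floor the median level was 7.58 on the KO array against 8.17 on the heterozygous array. The lowest was probe set 5605085, at 7.55 on the KO array against 9.61 on the heterozygous one, followed by 4729198 at 7.72 and 9.69. The highest was 5609981, at 7.58 on the KO array against 6.05 on the heterozygous one. Of the 17, 6 were lower by 2-fold or more on the KO array and 1 was higher by as much. Among the 6, probe set 5206800 was under the floor on the KO array, at 5.49 against 7.18. Only 6.43% of all evaluated genes had a difference below that of Arntl.

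Under the floor were 6 further Arntl probe sets, 5 higher and 1 lower on the KO array, with a median difference of 1.86. The widest of them, 4843426, stood at 8.14 on the KO array against 3.44 on the heterozygous one, and 4765697 stood at 6.34 and 3.75. With all 23 probe sets the Arntl difference was -0.08, with 14 lower and 9 higher, and with the floor raised to the 75th percentile it was -0.68 over 12 probe sets. The sign of the Arntl value was the same in each setting, but its size depended on which probe sets were used. Without a floor the median over all evaluated genes was -0.09, so Arntl at -0.08 was not lower than genes in general there.

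The Arntl value of -0.58, from probe sets above the floor, was seen on an array that also held less signal from oligodendrocytes. All 20 evaluated genes of the mature and precursor oligodendrocyte lists were below 0, beside 65.2% of all evaluated genes. The median difference of the 20 was -0.80. Their median level was 6.89 on the KO array against 8.61 on the heterozygous one. Medians of the arrays can fall on different genes, so the median of the paired differences is the value to read. Clock genes are active in most cell types, and in a sorted sample fewer cells of a type and less RNA per cell cannot be told apart. The part of oligodendrocyte RNA in the clock gene values was not tested. The suprachiasmatic nucleus, the master clock, lies in the hypothalamus too, so a list of its neurons was included. Of its 9 evaluated genes 8 were below 0, with a median of -0.23, beside 65.2% and -0.11 over all evaluated genes. Gene levels in the list lay between 6.30 and 8.17 in the KO and between 6.65 and 8.49 in the heterozygote. Rorb is in this list and in the pathway lists. The lowest was Avp, the vasopressin gene, at -0.57, and the highest was Prokr2, the prokineticin receptor, at 0.16.

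Clock and Npas2 encode the alternative partners of BMAL1. Clock, the founding gene of the mammalian clock, had a median level of 8.56 on the KO array against 8.44 on the heterozygous one, and 19 of 31 probe sets were higher on the KO array. Its probe sets above the floor ran from 5096249, at 8.27 against 9.60, to 5131828, at 8.48 against 6.82. Npas2, which is prominent in forebrain, was near the floor in many probe sets, with 14 of 31 under it. Its median level was 7.13 on the KO array against 7.45 on the heterozygous one, and 12 of 17 probe sets were lower. The widest difference of Npas2 above the floor was at 4808969, at 5.57 on the KO array against 7.40 on the heterozygous one. It was under the floor on the KO array and passed through the heterozygous one. The 3 activator genes thus spanned 0.70 on the log2 scale, from Arntl to Clock, without a common direction.

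**Figure D2:**
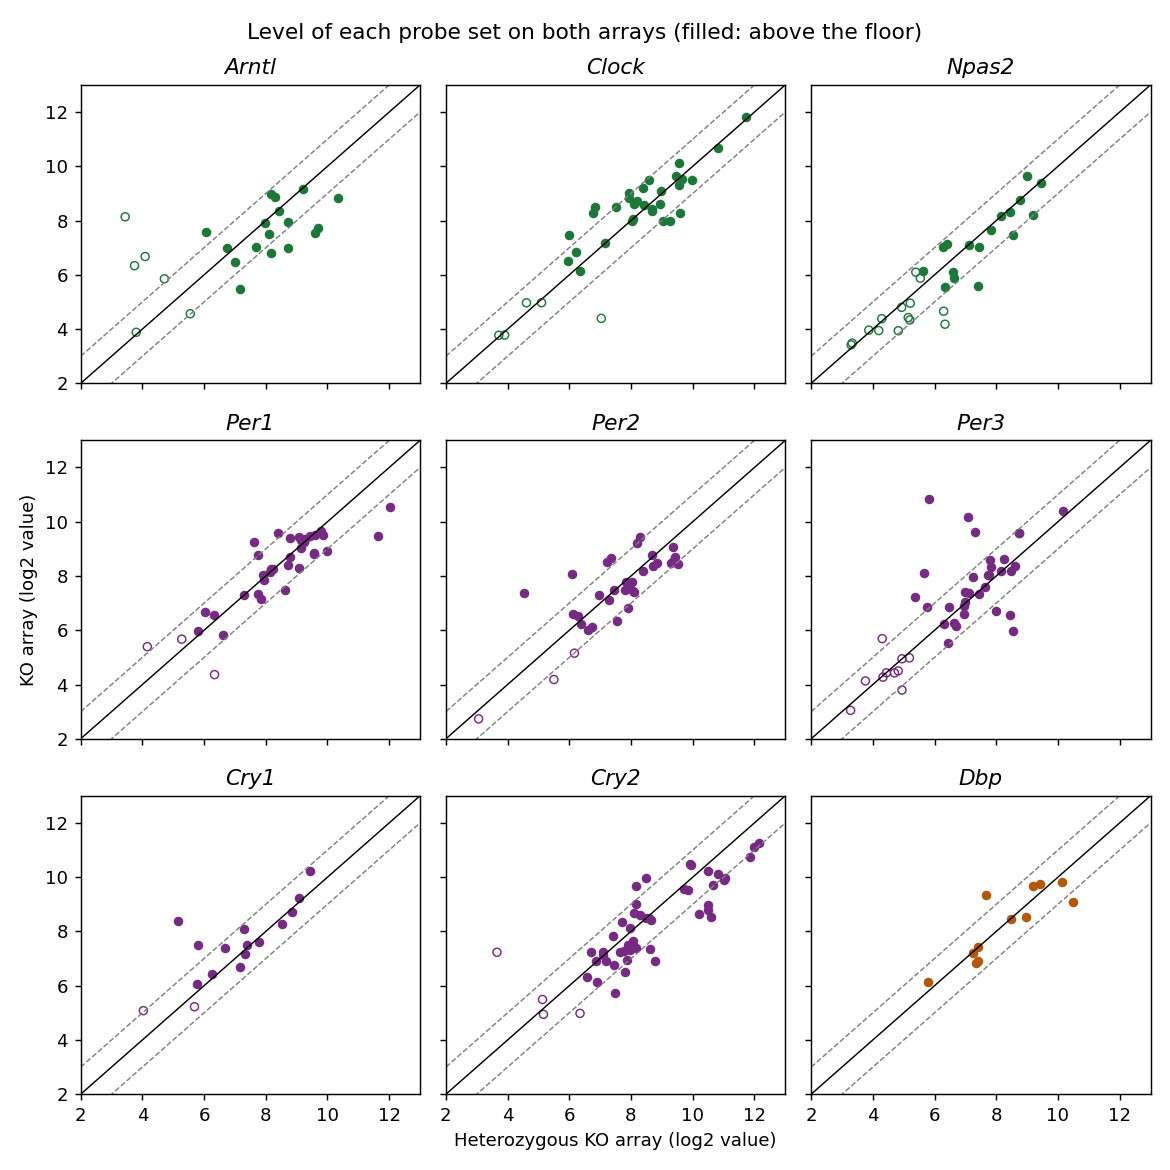
Level of each probe set on the heterozygous KO array (x axis, log2) and on the KO array (y axis, log2), 1 panel per gene; the solid line marks equal values and the dashed lines 2-fold. Over the probe sets above the floor, the arrays correlated most in Cry2, Dbp, Per1, Clock and Npas2 (r from 0.837 to 0.848). They correlated least in Per3 (r = 0.344) and Arntl (r = 0.512). Such a correlation does not measure closeness to the line of equal values.

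The Per genes encode the PERIOD proteins, the inhibitory arm that builds up and is degraded each day. Per1 can also be switched on within minutes by neuronal activity. Its level was 8.79 on the KO array against 8.75 on the heterozygous one, with 15 probe sets higher and 19 lower, so the gap between the levels and the paired difference of -0.04 have opposite signs. The lowest was 5203154, at 9.48 on the KO array against 11.6, followed by 5414067, at 10.6 against 12.0. The highest was 5474900, at 9.24 against 7.61. Of the 34 probe sets, 20 differed by less than 0.5 on the log2 scale. A list of immediate early genes, which neuronal activity and cell handling induce, was included. Of its 13 evaluated genes 9 were below 0, with a median of -0.26, beside 65.2% and -0.11 over all evaluated genes. Fos was highest at 0.48 and Egr3 lowest at -1.13, the 1 gene of that list to be called, where 2.25% of all evaluated genes were.

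Per2, whose protein is rate-limiting for the repressor complex, stood at 7.78 on the KO array against 7.90 on the heterozygous one. Lower on the KO array were 20 of 31 probe sets, yet only 3 of them by 2-fold, while 6 of the 11 higher ones passed 2-fold. The highest was 5421225, at 7.36 on the KO array against 4.54 on the heterozygous one, where it was under the floor, and the lowest was 5275797, at 6.36 against 7.56. Many small lower values and a few large higher ones thus met in this gene, and the mean over its probe sets was 0.00 where the median was -0.26. A further 3 probe sets carry the symbols of Per2 and of 9830107B12Rik together and were left out, as the annotation does not tell the genes apart there. They stood at 8.55 against 8.42, 8.42 against 8.29 and 9.82 against 8.13, all higher on the KO array. With them, Per2 was at -0.19.

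Per3, the PERIOD gene that is least needed for the rhythm itself, had the largest SD over probe sets of the 9. The level was 7.58 on the KO array against 7.31 on the heterozygous one, and 20 of 33 probe sets were higher on the KO array. Probe set 5481601 had the widest difference of any member probe set, 10.9 on the KO array against 5.82 on the heterozygous one, where it was under the floor. Next came 5113492, at 10.2 against 7.09, then 4884803, at 8.12 against 5.66, also under the floor on the heterozygous array, and 5518456, at 9.62 against 7.31. In the other direction, 5120613 stood at 5.99 on the KO array against 8.54 on the heterozygous one. Of the 33 probe sets, 17 differed by less than 0.5, and the positions of the others in the transcript were not analysed here.

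The SD of 1.40 over the Per3 probe sets was larger than that of 94.0% of the evaluated genes, whose median SD was 0.68. The correlation between the arrays over the Per3 probe sets was r = 0.344 (n = 33), with 6.47% of the 8543 genes with at least 10 probe sets lower and a median of 0.805 over those genes. Such a correlation is across probe sets that share 1 pair of arrays, and it is given as a description. With only the 28 probe sets at or above the floor on both arrays, Per3 was at 0.14 (SD 1.06), and with no floor it was at 0.05 over 43.

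The Cry genes encode the cryptochromes, which bind PERIOD proteins and are the strongest repressors of the activator pair. Cry1 and Cry2 differed in opposite directions, by amounts within the spread of their probe sets, and the gap of 0.55 between them was not tested. Cry1 had a level of 7.55 on the KO array against 7.31 on the heterozygous one, with 9 of 14 probe sets higher. No Cry1 probe set above the floor was 2-fold lower, and the lowest was 4598750, at 6.68 against 7.16. The highest was 4748458, at 8.38 on the KO array against 5.17 on the heterozygous one, where it was under the floor. With the 11 probe sets that reached the floor on both arrays, the Cry1 difference was 0.11 and its SD 0.44.

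Cry2 had the most probe sets of the 9 genes. Of its 46 probe sets, 31 were lower on the KO array, 11 of them by 2-fold or more, and 2 were higher by as much. Among the 11, probe set 4368885 was under the floor on the KO array, at 5.72 against 7.47. The lowest of the 46 was 5405002, at 8.52 on the KO array against 10.6 on the heterozygous one. The highest was 4784198, at 9.98 against 8.48. The median level of Cry2 was 8.46 on the KO array against 8.23 on the heterozygous one, opposite in direction to the difference. The medians of the arrays fall on different probe sets, so the median of the paired differences, -0.40, is the value to read. A lower difference was found in 14.5% of all evaluated genes. The value stayed between -0.42 and -0.29 under the 10 other settings.

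Dbp encodes a D-box factor whose transcript has one of the widest daily swings in many tissues. All 12 of its probe sets were above the floor, 5 higher and 7 lower on the KO array. The lowest was 4782196, at 9.07 on the KO array against 10.5 on the heterozygous one, and the highest was 5251271, at 9.36 against 7.67. The other 10 differed by less than 2-fold, and 9 of the 12 differed by less than 0.5 on the log2 scale. As in Cry2, the median levels of 8.48 and 8.07 do not give the sign of the paired difference of -0.03.

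The rest of the pathway was taken from 5 lists with 43 genes, of which 41 were evaluated, 3 of them under an older symbol. Below 0 were 31 (75.6%), beside 65.2% of all evaluated genes, with a median of -0.27 beside -0.11. A single gene, 2.44% of the 41, was called, near the 2.25% of all evaluated genes. It was Cdkn1a, a cell cycle inhibitor under clock control and also a FoxO target, at -1.41 (SD 0.95, 5 of 5 probe sets lower). Its level was 7.40 on the KO array against 9.08 on the heterozygous one.

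In the nuclear receptor loop, 2 of 4 evaluated genes were below 0. Nr1d1 and Nr1d2 encode the REV-ERB receptors, which repress Arntl, and lay on opposite sides at -0.38 (8 of 12 probe sets lower) and 0.20 (10 of 18 higher). Rora, an activator of Arntl, was at 0.03, and Rorb was at -0.30. Among other factors that bind D-boxes or act at E-boxes, 6 of 7 were below 0, with a median of -0.22. The lowest was Ciart, a repressor of the activator pair that the annotation lists as Gm129, at -0.97 (SD 0.92, 9 of 10 probe sets lower) and levels of 6.71 against 7.63. It missed the 2-fold rule here and passed it, at -1.38 over 4 probe sets, when the floor was raised to the 75th percentile. The highest was Hlf, a relative of Dbp, at 0.15 with 10 of 20 probe sets higher, and Tef, the other relative, was at -0.22 with 10 of 14 probe sets lower. The medians of the D-box activators Dbp, Hlf and Tef did not share a sign.

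None of the genes that modify or degrade clock proteins was called. Of 10 evaluated kinases, ubiquitin ligases and the protease Usp2, 9 were below 0, where 65.2% of all evaluated genes were, with a median of -0.34. Csnk1e, the casein kinase that marks PERIOD proteins for breakdown, was lowest at -0.65 (SD 0.49, 14 of 15 probe sets lower), with a level of 7.99 against 8.67. Its close relative Csnk1d was at -0.41 (16 of 24 lower). Btrc, a subunit of the ligase that takes up phosphorylated PERIOD, was highest at 0.19 (20 of 33 higher). Among 12 cofactors 9 were below 0, with a median of -0.11 like that of all genes. Ep300, an acetyltransferase that works with the activator pair, was lowest at -0.40 (36 of 49 lower). Tipin, the partner of TIMELESS, was highest at 0.68, with only 4 of 7 probe sets higher.

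Of the 8 clock-controlled genes, 5 were below 0. Besides Cdkn1a, the furthest from 0 was Coq10b, a mitochondrial coenzyme Q binding protein, at 0.78 (SD 0.86, 11 of 13 probe sets higher) with levels of 9.02 on the KO array against 7.99 on the heterozygous one. Nampt, the enzyme of NAD salvage that feeds back on the clock through sirtuins, was at 0.76 (SD 1.08, 8 of 13 higher). Neither was called. The 8 genes ran from -1.41 to 0.78, where the 9 members ran from -0.58 to 0.25; the difference in range was not tested.

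**Figure D3:**
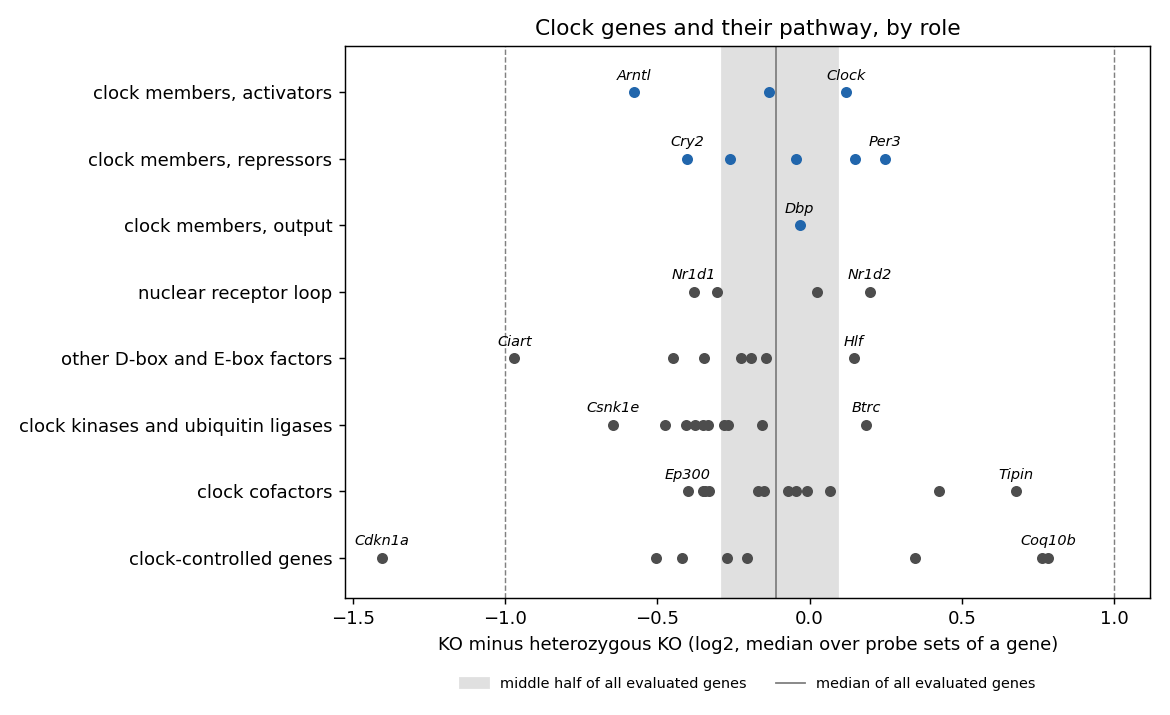
Gene differences (x axis, log2) of the 9 clock genes (blue) and of 41 other evaluated genes of their pathway (grey), 1 point per gene in rows by role, with the lowest and highest gene of each row named. The shaded band is the range between the quartiles of all evaluated genes (-0.29 to 0.09), and Cdkn1a at -1.41 is the 1 point past a dashed 2-fold line.

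The choice of settings moved the members little except for Arntl, Per3, Cry1 and Per2. None of the 9 reached a 2-fold difference under any of 10 other ways to form the gene value. The mean in place of the median over probe sets put Cry1 at 0.48 and Per3 at 0.40, and Per2 at 0.00. Per1 and Dbp changed sign when the differences were centred on the median over all genes, which adds 0.11 to each, to 0.07 and 0.08. Centred in that way, 4 of 9 members were below 0.

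**Figure D4:**
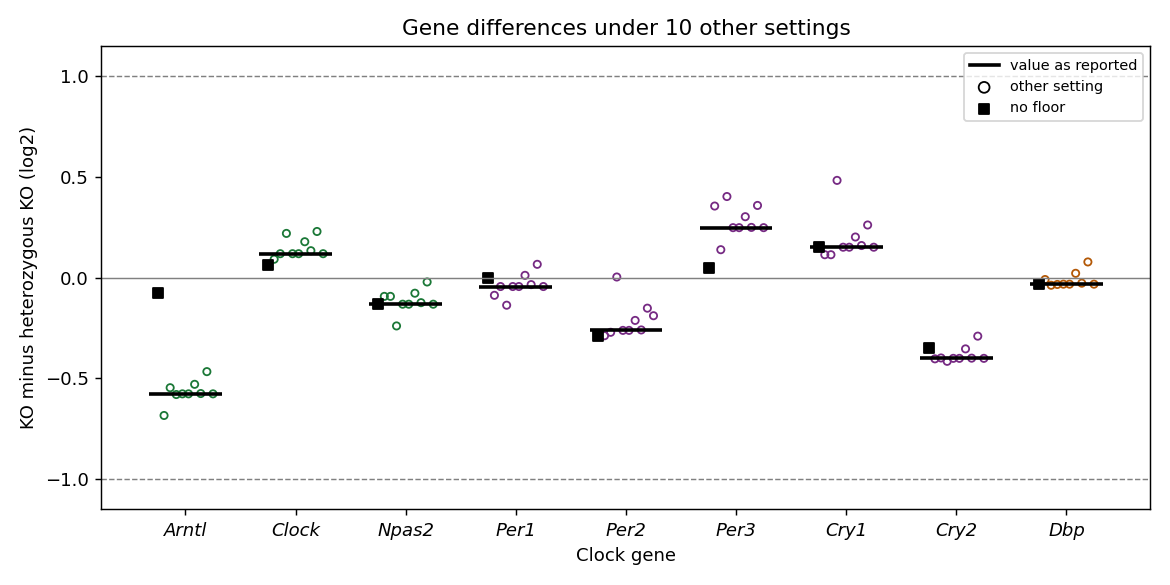
Difference of each clock gene (y axis, log2) as reported (black bar) and under 10 other settings (circles), with the value for no floor as a black square; dashed lines mark 2-fold. The Arntl square at -0.08 stands apart from the bar at -0.58, and no point of any gene reaches a dashed line.

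Across the series, the arrays correlated at r = 0.920 over 1235936 probe sets. Foxo1, the deleted gene, was lower on the KO array, at -0.48 (SD 0.53, 8 of 8 probe sets lower) with levels of 7.46 against 7.98, and was not called; the position of its probe sets relative to the deletion was not analysed here. The sorted cells carried the peptide genes of AgRP neurons at high levels, with Agrp at 12.4 on the KO array against 12.0 on the heterozygous one and Npy at 12.2 and 12.3, with paired differences of 0.27 and 0.14. The 10 genes of the AgRP neuron list had a median of 0.14, from Ghsr at -0.60 to Mc3r at 0.52. Mature oligodendrocyte genes had a median of -1.07 and precursor genes -0.50. Of these 20 genes 9 were called lower, where 2.25% of all evaluated genes were called in either direction. The medians were -0.16 for astrocytes and tanycytes, -0.11 for microglia, -0.25 for endothelial cells and pericytes and -0.18 for other hypothalamic neurons. Of the 8 genes of other hypothalamic neurons 3, led by Slc17a6 at -4.29, were called lower. Astrocyte and tanycyte genes ran from Slc1a3 at -0.73 to Gfap at 0.66.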

How the data were processed

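The values deposited by the authors are 1 per array for every probe set, on a log2 scale as judged from their range (2.55 to 14.1 on the KO array). Per the submitters' processing notes the authors used RMA and Partek; their versions and the genome build are details not given in the sources used. The median probe set was at 5.85 on each array.

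Probe sets with 1 gene symbol in the platform annotation (318760 of 1235936) named a gene. Those with a mean over both arrays at or above 5.86 were used, and genes with at least 3 of them were evaluated. A gene's difference is the median of its paired differences. A probe set can pass the floor through 1 bright array. With 1 array per genotype no test was run.

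The 9 members, and the lists of their pathway and of cell types, were chosen with earlier results of these data known. Named by rule are all members, Foxo1, called genes of the clock lists, and the highest and lowest gene of lists; Agrp, Npy, Nampt, Csnk1d, Rora, Rorb, Tef and Bhlhe41 were named besides, after their values were seen. For single members, the probe sets with the widest differences are given. The scripts were tested on simulated data. Alternatives covered the floor, the summary over probe sets, the least number of them, normalization and the calling rule. Promoter windows and current symbols are from RefSeq (GRCm38.p6). Python 3.11.15, numpy 2.4.6, pandas 2.3.3, statsmodels 0.14.6 and matplotlib 3.10.9 were used.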

Additional observations from a re-analysis of the deposited data

How the results depend on the processing

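The floor was dropped, raised to the 75th percentile or required of both arrays; the mean replaced the median; genes with 1 or with 5 probe sets set the minimum; the trend on level was removed, quantiles were normalized again, genes were centred, and shared probe sets were let in. Calls were also made at 1.5-fold and without the agreement rule. No clock member was called in any of these settings. The members' median ran from -0.09 with the raised floor to 0.07 with centring, and 4 to 6 of 9 lay below 0. Arntl, Clock, Npas2, Per3, Cry1 and Cry2 kept their sign under the 10 settings that bear on a difference. Per1 changed sign under trend removal and centring, as did Dbp, and Per2 at 0.00 with the mean. The count of other clock pathway genes called was 2 with the raised floor (Ciart added), 2 with the mean (Bhlhe41 added) and 4 with the 1.5-fold rule, against 1 as reported. Over all genes 374 were called, against 231 with the floor on both arrays, 667 with at least 1 probe set and 1360 with the 1.5-fold rule, which tests fewer, more and the same genes. No paired analysis was possible because each genotype has 1 array. That number limits these values. Npas2, with 14 of 31 probe sets under the floor, and the under-floor probe sets of Arntl and Per3 limit them too. Of the Arntl ones, 4843426, 5183038 and 4765697 were under the floor on the heterozygous array alone. They stood at 8.14, 6.67 and 6.34 on the KO array against 3.44, 4.09 and 3.75. A background level was not estimated.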

Other observations

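Under the floor, the clock genes had 47 probe sets, none of them from Dbp. Of them 8 were higher on the KO array by 2-fold or more and 8 lower by as much, 17.0% each way, where all 102784 single-symbol probe sets under the floor gave 7.01% and 7.36%. Arntl alone gave 4 of the 8 that were higher. Whether the clock genes differ from other genes in this was not tested. A mean under the floor puts at least 1 array under it by definition, in these as in all other genes. RefSeq lists genes whose spans overlap those of 7 members, among them Sphk2 at Dbp and Uts2 at Per3, and whether any uneven probe set lies in such a stretch was not tested.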
